A study of Homo sapiens with 22 samples.

Results

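The NRF2 target genes are 9 genes of the cellular antioxidant response, listed by symbol: SLC7A11, HMOX1, NQO1, GCLM, GCLC, TXNRD1, SRXN1, OSGIN1 and NFE2L2, the gene of the NRF2 protein itself. They were chosen with earlier results of these data known. All 9 were present among the 33538 genes of the WM989 table and among the 36601 genes of the WM983B and treatment tables. The study asked how melanoma cells switch between a drug-susceptible state and a primed state, a rare state of untreated cells that more often survives targeted therapy. WM989 and WM983B are human melanoma cell lines, profiled by droplet scRNA-seq that counts unique molecular identifiers (UMIs). Untreated, barcoded WM989 cells were profiled from 8 chip wells, numbered 1 to 4 in a first replicate (r1) and 5 to 8 in a second (r2), and untreated WM983B cells gave 1 library. Per the methods the WM989 cells had been sorted as EGFR/NGFR-high or mixed and expanded, and each culture was loaded on a pair of chip wells, so the 8 wells include repeat loadings and are not 8 replicates. The cell labels do not name the sort of a well. In the treatment experiment barcoded WM989 cells of 1 well were expanded, split over 4 plates and left untreated (Control) or given recombinant TGFB1, an inhibitor of the TGF-beta receptors (TGFBRi) or an inhibitor of PI3K (PI3Ki), with 2 replicates run in parallel. The sample labels name these 2 replicates Mix and Primed, whereas the methods describe parallel samples and no such difference. Which of them is r1 and which r2 was not settled. ATAC-seq profiled open chromatin of WM989 cells sorted as EGFR-high, NGFR-high, EGFR/NGFR-high or marker-negative, with 3 libraries each. The marker-negative libraries carry the sample label Mix, whereas the methods describe a sort without either marker, and which name is exact was not settled. The state of each cell is the label that the authors gave its cluster.

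NRF2 is a transcription factor that KEAP1 normally holds in the cytoplasm and hands to the proteasome. When electrophiles or oxidants modify KEAP1, NRF2 accumulates, pairs with a small MAF protein and binds antioxidant response elements in the promoters of its target genes. The factor is therefore controlled largely at the level of the protein, and several of its targets, among them SLC7A11 and HMOX1, also answer to other factors such as ATF4 and BACH1. In melanoma, glutathione supply and the export of reactive molecules are known to bear on survival under stress.

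Antioxidant response elements were looked for as the letters TGACNNNGC, and AP-1 sites as TGANTCA, on both strands. Among the 35116 promoter windows of RefSeq on GRCh38, each of 300 bases, 13.3% held the first motif, 7.71% the second and 0.561% overlapping copies of both. The RefSeq table held 9 windows of 7 members, and SLC7A11 and HMOX1 were not among them. The first motif was found in the GCLM window and in both TXNRD1 windows, and the second in the OSGIN1 window. The matches are shown because they are all those found in the promoter windows of the members. Each sequence is given 5′ to 3′ on the strand of the gene with 10 bases on either side, the capitals mark the motif, and a motif on the other strand reads GCNNNGTCA.
GCLM, chr1:93909446-93909474, minus strand: tacgatttctGCTTAGTCAttgtcttcca
TXNRD1, chr12:104215670-104215698, plus strand: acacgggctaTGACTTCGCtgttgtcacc
TXNRD1, chr12:104215761-104215789, plus strand: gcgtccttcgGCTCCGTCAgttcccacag
TXNRD1, chr12:104286920-104286948, plus strand: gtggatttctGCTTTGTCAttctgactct
OSGIN1, chr16:83953133-83953159, plus strand: gggcccctgcTGACTCAcgcttatgaa
Counted from the RefSeq start, the GCLM motif begins at -34, the first pair of TXNRD1 motifs at -99 and -8, the last TXNRD1 motif at -102 and the OSGIN1 motif at -97. The windows of NQO1, GCLC, SRXN1 and NFE2L2 held neither set of letters, which says only that these letters are not in these windows.

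Depth differed between experiments. There were 12531 cells and 750662838 UMIs of WM989, 1449 cells and 102738398 UMIs of WM983B, and 40021 cells and 685641196 UMIs in the treatment experiment, with 70239657 to 122420544 UMIs per treatment library. Levels are given in CPM, a gene's UMIs as a share of all UMIs of the cells summed, scaled to a common total. A cell barcode was shared by other cells for 38 cells of the WM989 table and 388 cells of the treatment table. The melanocyte markers SOX10, MITF, MLANA, PMEL, TYR and DCT were all detected in drug-susceptible WM989 cells (78.2 to 2158 CPM) and all lower in primed WM989 cells (4.01 to 66.8 CPM). EGFR, AXL, NGFR and NT5E were all higher in primed WM989 cells, KRT5 was at 0, and PTPRC and KRT14 were below 0.06 CPM. PECAM1, an endothelial gene, reached 22.8 CPM in the primed state against 0.183 CPM in the drug-susceptible one, and the fibroblast genes LUM and DCN were at 16.9 against 32.2 CPM and 6.19 against 1.33 CPM. The part of these markers in the results was not tested. In such sums, fewer cells with a gene's RNA and less RNA per cell cannot be told apart.

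In untreated WM989 cells the members did not move as 1 block between the states. In counts summed over the wells of a replicate, NQO1, GCLM and TXNRD1 were higher in primed cells and HMOX1 and OSGIN1 were lower, each by at least 1.5-fold in both replicates. Thus 3 of 9 members were past the fold upwards, against 16.0% of the 10313 genes with at least 5 CPM, and 2 downwards, against 13.0%. These sums pool wells that differed in level and in their share of primed cells. With each well weighted equally 4 members were past the fold in both replicates, NQO1 (log2 1.04) upwards and HMOX1 (-1.14), OSGIN1 (-2.17) and GCLC (-0.78) downwards, while GCLM (0.48) and TXNRD1 (0.64) were not. Under that weighting 13.8% of 10301 genes were past the fold upwards and 12.3% downwards. In the sums, the median log2 ratio of the 8 members with at least 5 CPM was 0.03, beside 0.0388 over all genes. The table is 1 GEO sample and the states were called on these same counts, so no test was made, and the well values below are a description over 2843 primed and 9688 drug-susceptible cells.

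SLC7A11 encodes the cystine transporter of system xc-, the entry of cystine for glutathione synthesis. In drug-susceptible cells its level was 6.79, 6.97, 13.9 and 13.6 CPM in wells 1 to 4 (r1) and 8.84, 7.48, 37.1 and 35.0 CPM in wells 5 to 8 (r2). In primed cells of the same wells it was 20.5, 14.2, 15.2 and 14.1 CPM in r1 and 30.6, 26, 11.3 and 9.99 CPM in r2. The primed cells were higher in 6 of 8 wells and lower in wells 7 and 8, so that the summed levels of 20.1 CPM (95% Poisson interval 19.5 to 20.8) and 20.3 CPM (19.9 to 20.7) hid differences of opposite sign. Its well log2 ratios ran from -1.81 to 1.80, the widest range among the members. Wells 1, 2, 5 and 6 held 56.9% to 79.7% primed cells, and wells 3, 4, 7 and 8 held 6.85% to 9.42%. The drug-susceptible cells of wells 7 and 8 had the highest SLC7A11 levels of all 16 well values.

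GCLM and GCLC encode the modifier and the catalytic subunit of glutamate-cysteine ligase, the first enzyme of glutathione synthesis, and they moved apart. GCLM was at 32.9, 25.8, 21.7, 19.9, 48.5, 48.3, 42.2 and 38.5 CPM in drug-susceptible cells of wells 1 to 8 and at 59.4, 44.6, 17.1, 22.5, 74.9, 71.3, 50 and 48.3 CPM in primed cells. It was higher in primed cells in 7 of 8 wells, with well 3 the exception, and its log2 ratios ran from -0.34 to 0.85. The levels of the 2 states overlapped. GCLC was at 10.2, 9.20, 7.82, 8.14, 15.3, 15.8, 12.4 and 12.4 CPM in drug-susceptible cells and at 5.18, 5.13, 5.61, 5.18, 9.05, 8.59, 7.47 and 6.80 CPM in primed cells. It was lower in primed cells in 8 of 8 wells, with log2 ratios of -0.98 to -0.48 that were past 1.5-fold in every r2 well. The summed ratio in r2, over wells of unlike level and primed share, was 0.668 and inside the fold.

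TXNRD1, the cytosolic thioredoxin reductase, was higher in primed cells of every well. Its level was 99.2, 93.6, 73.8, 74.8, 164, 162, 135 and 140 CPM in drug-susceptible cells and 167, 150, 121, 144, 287, 259, 155 and 182 CPM in primed cells. The log2 ratios ran from 0.20 to 0.94, and both states were higher in the r2 wells than in their r1 counterparts. SRXN1, which reduces overoxidised peroxiredoxins, was near the limit of detection, with 0.602 CPM in the drug-susceptible state and 0.812 CPM in the primed one, below the minimum of 5 CPM. It had 0 UMIs in the primed cells of wells 3 and 4, where 3 counts would be 0.443 and 0.317 CPM, and 0.0576 to 0.114 CPM in the other r1 sums against 1.11 to 2.33 CPM in r2. The same gene was at 15.8 and 20 CPM in the drug-susceptible cells of the Control libraries of the treatment experiment, whose gene table is another one, and the reason for the gap was not tested.

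NQO1, the quinone reductase that is the textbook NRF2 target, had the highest ratio of the members. It was at 326, 321, 224, 219, 462, 453, 368 and 366 CPM in drug-susceptible cells of wells 1 to 8 and at 907, 835, 453, 629, 876, 882, 550 and 511 CPM in primed cells. Each well was higher in primed cells (log2 ratios of 0.48 to 1.52), and only the primed cells of well 3 fell within the range of the drug-susceptible wells. Summed over wells it was 2.77-fold higher, by 3.35-fold in r1 and 2.17-fold in r2, and these sums over unlike wells lay above the ratio of every single well of their replicate.

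HMOX1, heme oxygenase 1, moved the other way. It was at 36.3, 42.4, 33.6, 33.9, 45.0, 52.3, 51.3 and 50 CPM in drug-susceptible cells and at 21.3, 18.5, 12.4, 16.9, 24.6, 19.5, 23.6 and 19.1 CPM in primed cells. OSGIN1, an oxidative stress-induced growth inhibitor, was at 15.1, 14.3, 12.7, 11.1, 17.3, 12.3, 18.2 and 18.8 CPM in drug-susceptible cells and at 2.92, 3.81, 3.10, 3.38, 3.30, 3.47, 3.68 and 2.91 CPM in primed cells. For both genes no primed well reached a drug-susceptible well, as for 13.7% of all genes in that direction, and 0 members had such a gap upwards (13.6%). The log2 ratios ran from -1.44 to -0.77 for HMOX1 and from -2.69 to -1.71 for OSGIN1. NFE2L2 was at 89.1 to 145 CPM in drug-susceptible and 79.6 to 139 CPM in primed cells of the wells, and its log2 ratios of -0.23 to 0.01 were close to 0.

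**Figure D1:**
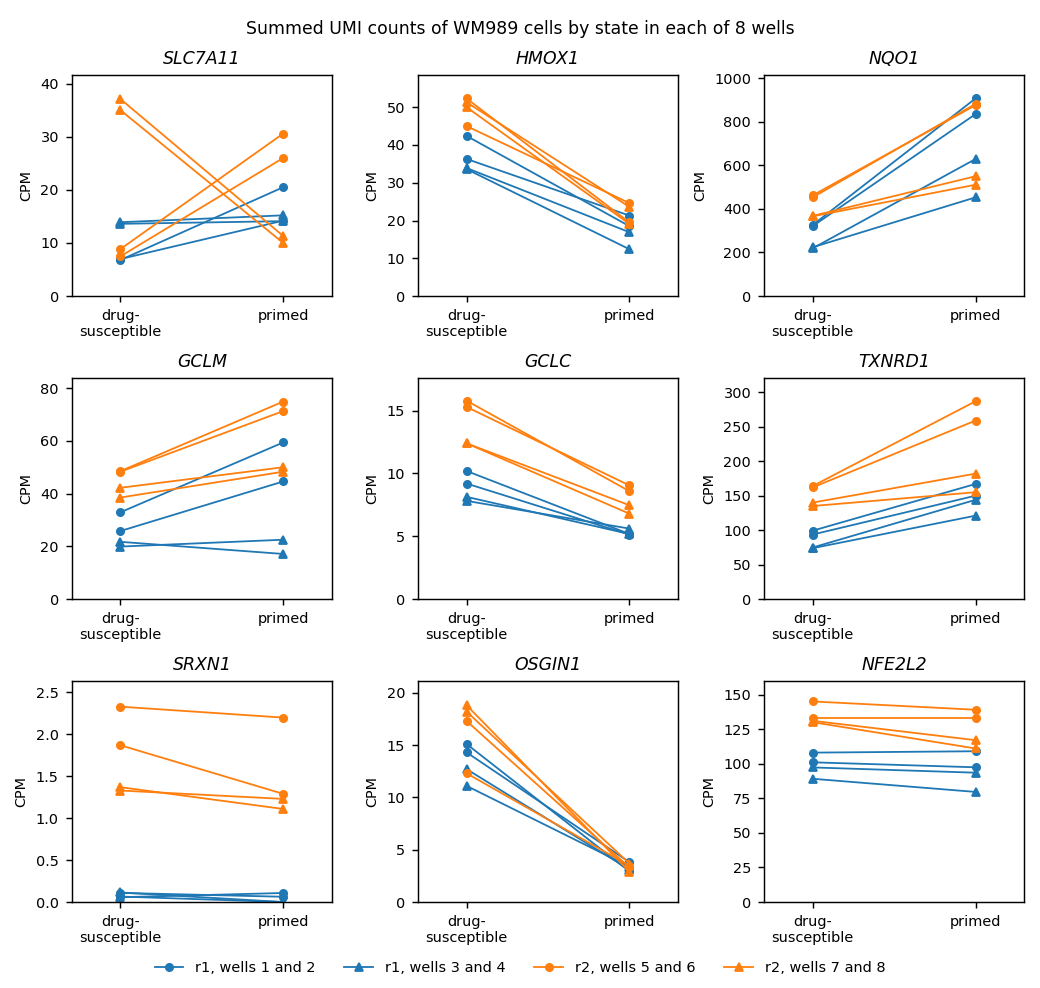
CPM of each member, on linear axes that start at 0, in the drug-susceptible and primed cells of each of the 8 WM989 wells, with a line joining the 2 states of 1 well, r1 in blue and r2 in orange, circles for wells 1, 2, 5 and 6 and triangles for wells 3, 4, 7 and 8. HMOX1, GCLC and OSGIN1 fall in all 8 wells, NQO1 and TXNRD1 rise in all 8, and the SLC7A11 lines cross, with wells 7 and 8 falling from 37.1 and 35.0 CPM.

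Cell cycle phase went with some of these levels, and the primed cells were mostly in G1 (2095 of 2843, against 2473 of 9688 drug-susceptible cells, by the authors' phase calls). HMOX1 in drug-susceptible WM989 cells was at 28.8 CPM in G1, 42.1 in S and 48.3 in G2M, whereas in primed cells it was at 19.6, 20.8 and 21.1 CPM. In the treatment experiment the drug-susceptible cells gave 30.6, 50.2 and 57.7 CPM in the same order. OSGIN1 stayed lower in primed cells within each phase, with 3.55 against 18.7 CPM in G1, 2.66 against 14.2 in S and 3.66 against 11.7 in G2M. NQO1 stayed higher within each phase, with 850 against 345 CPM in G1, 761 against 281 in S and 686 against 270 in G2M.

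Shares of cells with a UMI gave the same order as CPM for the 5 members past the fold. After thinning each cell to 10000 UMIs, 96.1% of primed and 84.2% of drug-susceptible WM989 cells had an NQO1 UMI, and 33.6% and 23.2% had a GCLM UMI. For TXNRD1 the thinned shares were 69.9% and 56.8%, for HMOX1 14.0% and 27.4%, and for OSGIN1 3.62% and 10.9%. Without thinning they were 99.8% and 98.9% for NQO1, 77.9% and 68.0% for GCLM, 97.2% and 94.7% for TXNRD1, 53.0% and 69.1% for HMOX1, and 17.1% and 38.1% for OSGIN1. SLC7A11 and OSGIN1 were the members most concentrated in few cells after the sparse SRXN1. The 125 cells with the most UMIs of the gene, 1% of the WM989 cells, held 21.2% of all SLC7A11 UMIs, 20.7% of OSGIN1 UMIs and 4.70% of NFE2L2 UMIs.

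Across the 11 WM989 clusters of the authors, of which 2, 8 and 9 are primed, OSGIN1 ranged 13.0-fold, NQO1 7.59-fold and SLC7A11 6.39-fold, against 1.42-fold for NFE2L2. SLC7A11 stood at 70.6 CPM (95% Poisson interval 67.3 to 74.1) in the 466 drug-susceptible cells of cluster 10 and between 11 and 23.4 CPM in the other clusters. OSGIN1 was also highest there, at 40.3 CPM against 3.09 to 21.9 CPM elsewhere. Both were high in either replicate, with SLC7A11 at 48.3 CPM in r1 and 149 CPM in r2 and OSGIN1 at 28.8 and 80.4 CPM, so the r2 values were the higher ones. Cluster 10 was also the highest for ATF4 (372 CPM) and its targets DDIT3 (238), TRIB3 (161), ASNS (125) and SESN2 (23.0 CPM), whose highest level in any other cluster was 164, 110, 61.9, 28.2 and 11.7 CPM. The ATF4 list held 12 genes, and the cluster values of its other genes are not reported here. These clusters were called on the same counts, so the values are a description.

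NQO1 was highest in primed clusters 2, 9 and 8 (922, 704 and 576 CPM) and lowest in drug-susceptible cluster 3 (121 CPM), with cluster 4 at 430 and cluster 10 at 409 CPM. GCLM was split within the primed state, at 65.3 and 58.6 CPM in clusters 9 and 2 but 30.9 CPM in cluster 8, which lies among the drug-susceptible clusters (22.1 to 35.4 CPM). TXNRD1 was highest in the same 3 primed clusters (223, 171 and 167 CPM in clusters 2, 8 and 9). HMOX1 was highest in clusters 1 and 7 (58.7 CPM each) and 10 (57.3 CPM) and lowest in cluster 2 (18.3 CPM), with drug-susceptible cluster 4 close by at 20.8 CPM. GCLC ran from 6.14 to 10.8 CPM and was lowest in the 3 primed clusters.

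**Figure D2:**
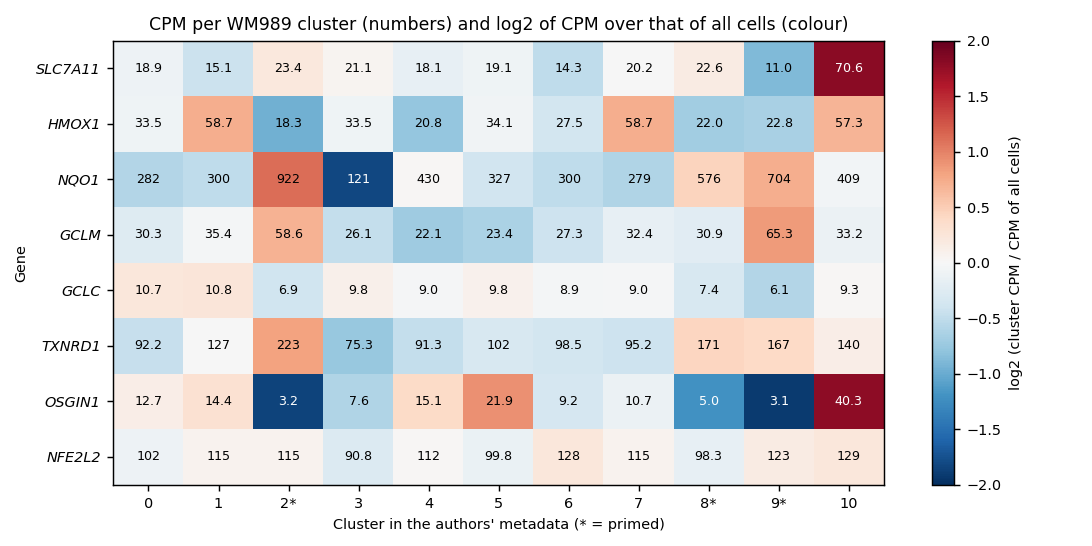
CPM of the 8 members above the minimum (numbers) in the 11 WM989 clusters of the authors, with primed clusters marked by a star, coloured by the log2 ratio of the cluster's CPM to that of all WM989 cells from blue (lower) to red (higher). SLC7A11 (70.6 CPM) and OSGIN1 (40.3 CPM) are reddest in cluster 10, OSGIN1 is bluest in primed clusters 2 and 9, and NFE2L2 stays between 90.8 and 129 CPM.

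Over 22 sums of a cluster and replicate and 9797 genes with at least 5 CPM on average, the genes whose log2(CPM + 1) followed a member most closely were named as a description, since the points share libraries and cells. NQO1 went with DHRS7 (Pearson's r = 0.968), OS9 (0.965) and ARL6IP5 (0.957), and GCLM with EIF2AK2 (0.95) and MEAF6 (0.943). TXNRD1 went with ZBTB21 (0.957), COG1 (0.949) and KRBOX4 (0.945), and HMOX1 with USP54 (0.884), PLEKHA5 (0.873) and CPSF4 (0.846). OSGIN1 went with AP1S2 (0.903), RPL27 (0.901) and MTHFD1L (0.889), and SLC7A11 with PYGB (0.904), KLHL36 (0.892) and CLN8 (0.888). None of these genes was a member. GCLM and TXNRD1 were each the member most like the other (r = 0.866), as were HMOX1 and OSGIN1 (0.706), and the member most like NQO1 was TXNRD1 (0.808).

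The other genes of the pathway were mixed in primed WM989 cells, in sums over wells where 16.0% of 10313 genes were past 1.5-fold upwards and 13.0% downwards. No list held more than 3 genes past the fold in 1 direction. Of 10 genes listed here as NRF2 regulators, BACH1, a repressor that competes for the same elements, was past 1.5-fold upwards (33.6 against 16.4 CPM). PIR, an iron-binding nuclear protein in the same list, was past it downwards (14.0 against 185 CPM). The list name is a label, and a role of PIR in regulating NRF2 was not tested. Of 6 NADPH-supplying genes, 2 were higher, among them ME1, the cytosolic malic enzyme, at 325 against 24.9 CPM, and 0 were lower. Of 6 thioredoxin and peroxiredoxin genes 0 were higher, and PRDX1 (1034 against 4259 CPM) and TXN (378 against 594 CPM) were lower. Of 7 cystine and glutathione genes above the minimum, GSTM3 (16.8 against 9.65 CPM) and MGST1 (5.14 against 0.718 CPM) were higher and 0 lower. Of 6 quinone, carbonyl and conjugate genes above the minimum, AKR1C3 (5.74 against 0.0770 CPM) and EPHX1 (33.1 against 19.7) were higher, and CBR3 (22.3 against 42.7) and UGDH (35.3 against 62.5) lower. Of 6 heme and iron genes above it, FTL (12986 against 5961 CPM) and FTH1 (12458 against 6439) were higher and FECH (5.47 against 10.9) lower. Of 10 ATF4 targets above it, DDIT4 (331 against 89.9 CPM) was higher, and SLC7A5 (10.7 against 36.6), PSAT1 (18.9 against 42.5) and PHGDH (111 against 182) lower. The ferritins, PRDX1, GSTM3 and AKR1C3 have near-identical copies or pseudogenes, between which the counting may have split reads, so their levels are uncertain. With each well weighted equally, where 13.8% of genes were past the fold upwards and 12.3% downwards, the regulator, thioredoxin, and heme and iron counts were the same. NADPH-supplying genes then had 1 higher (ME1), cystine and glutathione genes 1 higher (GSTM3), quinone genes 0 higher and 2 lower, and ATF4 targets 2 higher (DDIT4 and TRIB3) and 2 lower (SLC7A5 and PSAT1).

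WM983B cells showed smaller differences between the states, and NQO1 did not repeat its pattern. NQO1 was at 226 CPM in the primed state (731 cells) and 245 CPM in the drug-susceptible one (718 cells) (log2 ratio -0.12, 95% interval -0.15 to -0.08, counting error only). SLC7A11 was at 49.5 against 33.5 CPM (0.56, 0.47 to 0.65), GCLM at 78.1 against 63.1 CPM (0.31, 0.24 to 0.38) and HMOX1 at 18.3 against 25.9 CPM (-0.50, -0.62 to -0.38). The other members lay close to equality, GCLC at 11.7 against 13.1 CPM, TXNRD1 at 295 against 284, SRXN1 at 31.7 against 31.2, OSGIN1 at 6.86 against 7.33 and NFE2L2 at 130 against 125 CPM. In all, 0 of 9 members were past 1.5-fold, against 5.24% of 10673 genes upwards and 2.52% downwards. There was 1 library, so no test was possible. Of the 6 melanocyte markers MLANA (2.4 against 59.8 CPM), PMEL (210 against 895), DCT (87.1 against 423) and MITF (197 against 392) were lower in the primed state past 1.5-fold, and SOX10 (192 against 208) and TYR (57.1 against 67.9 CPM) lay within it. AXL (76.2 against 24.2 CPM), NGFR (56.1 against 12.3) and NT5E (85.6 against 40.9 CPM) were higher past the fold, and EGFR, at 3.13 against 2.21 CPM, was below the minimum of 5 CPM.

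Among the 4 WM983B clusters SLC7A11 was at 49.4 and 49.9 CPM in the primed clusters 0 and 2 (640 and 91 cells), against 34.1 and 29.5 CPM in clusters 1 and 3 (628 and 90 cells). GCLM was higher in cluster 0 alone (80.9 CPM) and at 60.1 to 65.6 CPM in the other 3. NQO1 was at 219 and 272 CPM in the primed clusters 0 and 2, against 247 and 232 CPM in clusters 1 and 3. SLC7A11 was higher in primed cells within each phase, at 59.6 against 37.8 CPM in G1, 42.0 against 33.1 in S and 46.8 against 31.2 in G2M. Of the pathway genes, PIR was again lower (44.6 against 79.1 CPM), TXNIP (111 against 57.3), TXNRD2 (70.5 against 43.1), DDIT4 (118 against 59.8) and ATF3 (8.07 against 3.93) were higher, and no other listed gene was past the fold.

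TGFB1 lowered SLC7A11 and raised GCLM in drug-susceptible cells, and lowered NQO1 and OSGIN1. This comparison asked what the ligand does to cells that keep the drug-susceptible label, and it was tested with edgeR on counts summed per library, with replicate as a term. SLC7A11 was at 9.43 and 12.2 CPM in the 2 Control libraries (r1, r2) and at 2.31 and 3.19 CPM with TGFB1, a log2 fold change of -1.99 (SE 0.111, adjusted p = 6.18e-12). GCLM was at 28.4 and 32.4 CPM in Control and at 42.4 and 45.9 CPM with TGFB1 (log2 0.53, SE 0.066, adjusted p = 2.9e-06). NQO1 went from 250 and 266 CPM to 186 and 196 CPM (log2 -0.45, SE 0.067, adjusted p = 3.1e-05), and OSGIN1 from 12.2 and 12.4 CPM to 8.14 and 9.40 CPM (log2 -0.51, SE 0.084, adjusted p = 0.000112). None of these 4 genes overlapped between the groups, which is a description only, since the share of all genes without overlap was not counted. Thus 1 member rose and 3 fell, against 8.56% and 6.32% of the 17914 genes tested (14.9% in either direction), and the median member was at -0.08.

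The other 5 members did not pass the test. HMOX1 was at 38.8 and 43.1 CPM in Control and 38.3 and 44.1 CPM with TGFB1, GCLC at 11 and 11.3 against 10.7 and 11.2, TXNRD1 at 132 and 147 against 121 and 136, SRXN1 at 15.8 and 20 against 17.4 and 19.1, and NFE2L2 at 110 and 103 against 105 and 98.6 CPM. Their adjusted p-values by edgeR lay between 0.198 for TXNRD1 and 0.961 for HMOX1. All cells together gave the same 4 calls, with SLC7A11 at -2.0, NQO1 at -0.49, GCLM at 1.09 and OSGIN1 at -0.76 on the log2 scale, where 16.3% of 18389 genes rose and 12.7% fell. The TGFB1 libraries held 29.1% and 31.3% primed cells against 2.26% and 4.47% in Control, and 44.1% of cells in G1 in both libraries against 34.0% and 32.7%, whose part in these results was not tested.

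Cluster 3 held 3801 of the drug-susceptible cells given TGFB1 and 115 of those of Control, so that 1660 of 3842 (r1) and 2239 of 3858 (r2) TGFB1 cells remained without it. Without that cluster, a choice made after seeing the data, SLC7A11 was at 9.40 and 12.3 CPM in Control and 2.85 and 3.70 CPM with TGFB1 (log2 -1.73, edgeR adjusted p = 1.75e-10). GCLM stayed at 0.60 (adjusted p = 1.23e-06) and NQO1 at -0.36 (0.000841), whereas OSGIN1 at -0.26 missed the threshold (0.0523). HMOX1 was then called higher, from 38.9 and 43.3 CPM to 53.9 and 55.2 CPM (log2 0.40, adjusted p = 0.000569), where 7.74% of genes rose and 5.5% fell. The remaining cells lay in different clusters by treatment. Cluster 0, at 31.4 CPM of HMOX1, held 2971 Control and 234 TGFB1 cells, and cluster 1, at 69.1 CPM, held 1557 and 1346. The part of this mix in the HMOX1 value was not tested. Within cluster 3 HMOX1 was at 23.2 CPM with TGFB1, in cluster 0 at 30.0 against 29.7 CPM in Control, in clusters 1, 7 and 8 at 66.2, 66.3 and 65.1 against 58.2, 56.7 and 56.3 CPM, in clusters 2 and 5 at 35.7 and 36.3 against 30.9 and 27.1 CPM, and in cluster 9 at 44.9 against 56.2 CPM. SLC7A11 was lower with TGFB1 in each of the drug-susceptible clusters that held over 200 cells of both treatments, for example 5.47 against 11.1 CPM in cluster 0, 2.60 against 9.96 in cluster 1 and 2.23 against 18.3 in cluster 9.

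**Figure D3:**
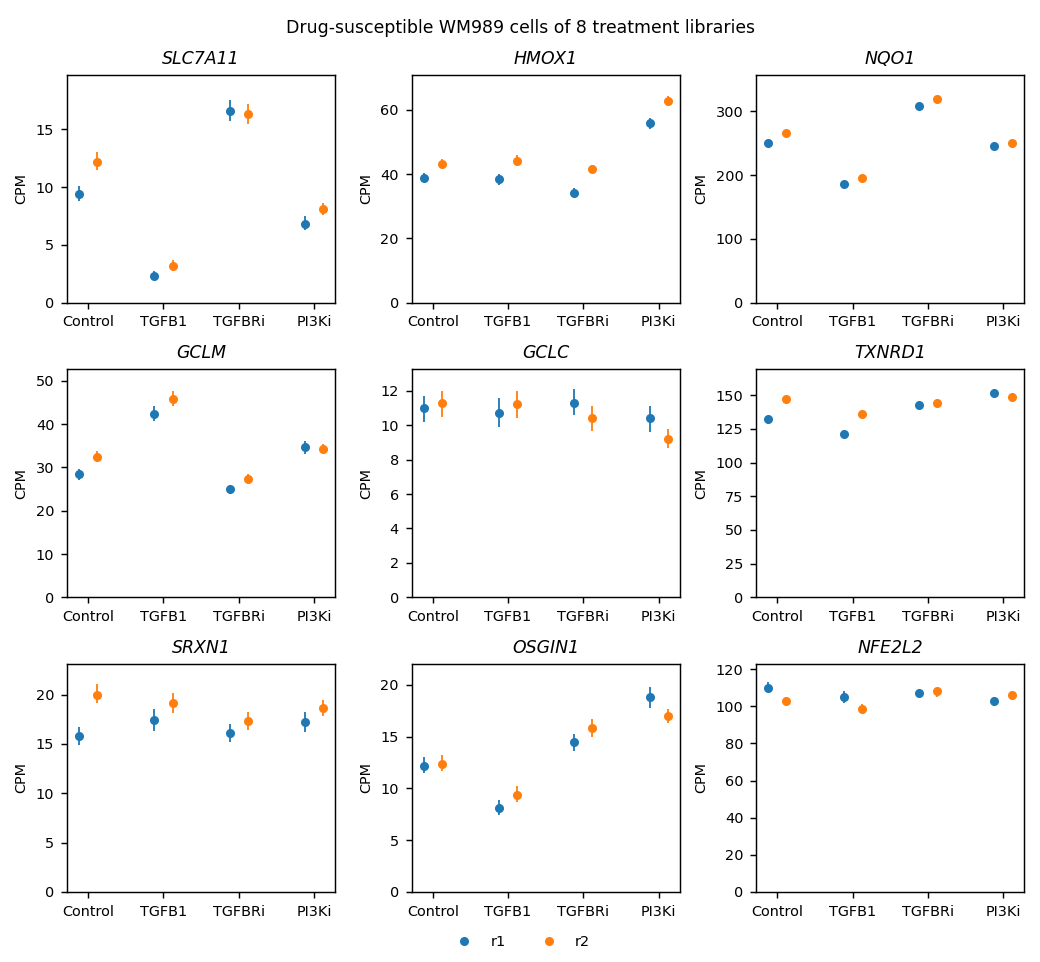
CPM of each member, on linear axes that start at 0, in the drug-susceptible cells of the 8 treatment libraries, 1 point for each library with r1 in blue and r2 in orange, and 95% Poisson intervals that cover counting error only. SLC7A11 falls from 9.43 and 12.2 CPM in Control to 2.31 and 3.19 CPM with TGFB1 and lies at 16.6 and 16.3 CPM with TGFBRi, and GCLM is highest with TGFB1.

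Among cells with the primed label, TGFB1 was tied to lower SLC7A11, NQO1 and TXNRD1 and to higher GCLM, but these cells came from different clusters. Of the 1577 and 1757 primed cells given TGFB1, 3254 in all lay in cluster 4, whereas of the 94 and 165 primed Control cells 248 lay in cluster 10 and 11 in cluster 4. SLC7A11 was at 47.0 and 17.7 CPM in Control and 2.98 and 3.27 CPM with TGFB1 (log2 -3.13, SE 0.331, edgeR adjusted p = 8.99e-10). It was at -2.19 without the r1 Control library and at -4.06 without the r2 Control library, called in both fits. GCLM was at 40.2 and 38.2 against 117 and 138 CPM (log2 1.80, SE 0.163, adjusted p = 1.46e-11). NQO1 was at 463 and 377 against 182 and 182 CPM (log2 -1.12, SE 0.142, adjusted p = 6.96e-08), and TXNRD1 at 277 and 165 against 142 and 138 CPM (log2 -0.54, SE 0.143, adjusted p = 0.00688). All 4 were free of overlap between the groups, a description for which the share of all genes was not counted. In this comparison 6.21% of 10930 genes rose and 7.09% fell, against 1 and 3 of 9 members.

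When only primed cells of cluster 10 were compared, a choice made after seeing the data, those 4 calls were lost. With 89 and 159 Control cells and 29 and 51 TGFB1 cells, SLC7A11 was at 31.4 and 18.4 against 36.5 and 16.2 CPM (log2 0.03), GCLM at 34.6 and 38.1 against 28.1 and 35.7 CPM (-0.17), NQO1 at 415 and 380 against 351 and 279 CPM (-0.36) and TXNRD1 at 247 and 165 against 250 and 169 CPM (0.01). Their edgeR adjusted p-values lay between 0.462 and 0.996. The SLC7A11 value (SE 0.518) rests on 13 and 10 UMIs from 6 and 6 TGFB1 cells. Without the cell with the most UMIs in each library SLC7A11 was at 14.6 and 8.49 against 23.8 and 15.3 CPM. NQO1 was then at 263 and 219 against 381 and 358 CPM. GCLM was at 23.0 and 33.0 against 31.5 and 36.6, and TXNRD1 at 192 and 150 against 222 and 158 CPM. The lost calls do not show that these genes were unchanged in cluster 10. OSGIN1 was higher there, at 36.5 and 13.0 CPM with TGFB1 against 6.44 and 4.60 CPM (log2 2.03, SE 0.552, adjusted p = 0.0401), and 1.04% of 9481 genes rose and 1.67% fell. That OSGIN1 value rests on 13 and 8 UMIs from 4 and 3 TGFB1 cells, and without the cell with the most UMIs in each library the levels were 20.4 and 5.09 CPM with TGFB1 against 3.28 and 3.80 CPM. In these cells 4 of 6 melanocyte markers were called higher with TGFB1 and 2 of 4 primed markers lower, whose part in the result was not tested. Primed cells of cluster 4 with TGFB1 were at 130 CPM of GCLM and 2.65 CPM of SLC7A11. The 11 Control cells of that cluster, too few for a comparison, gave 77.0 and 123 CPM. Low SLC7A11 was not particular to cluster 4, as drug-susceptible cluster 3 was at 2.5 CPM over all treatments.

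The remaining members did not pass in primed cells. GCLC, SRXN1, OSGIN1 and NFE2L2 had log2 fold changes of -0.11, -0.13, -0.71 and 0.20, and HMOX1 one of -0.59 (edgeR adjusted p = 0.133) from 99.9 and 17.3 CPM in Control to 30.6 and 30.8 CPM. In the r1 Control library 63 of the 134 HMOX1 UMIs came from 1 of 94 cells, and without that cell the level was 53.4 CPM. Without that library HMOX1 was at 0.92, without the r2 Control library at -1.62 (adjusted p = 7.53e-10), and TXNRD1 missed the threshold without r1 Control (-0.11), without r1 TGFB1 (-0.48) or without r2 TGFB1 (-0.60). With DESeq2, SLC7A11 was just short of the threshold (-3.35, adjusted p = 0.0507).

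The receptor inhibitor moved 3 members of drug-susceptible cells, in the direction opposite to TGFB1, against the same Control libraries. SLC7A11 was at 16.6 and 16.3 CPM with TGFBRi and 9.43 and 12.2 CPM in Control (log2 0.63, SE 0.087, edgeR adjusted p = 8.26e-05). NQO1 was at 308 and 320 CPM against 250 and 266 (log2 0.30, SE 0.066, adjusted p = 0.011), and OSGIN1 at 14.5 and 15.8 CPM against 12.2 and 12.4 (log2 0.31, SE 0.077, adjusted p = 0.0275). These 3 rises stand against 1.22% of 17914 genes that rose and 1.59% that fell (2.81% together), and 0 members fell. GCLM was at 24.9 and 27.3 CPM against 28.4 and 32.4 (log2 -0.20, adjusted p = 0.116), and the other 5 members had log2 fold changes of -0.10 to 0.06. In all cells the same 3 genes rose, by 0.57, 0.30 and 0.32, where 1.09% of genes rose and 1.45% fell (2.53% together). None of the 3 calls held without the replicate term, with adjusted p-values of 0.0961 for SLC7A11, 0.123 for NQO1 and 0.231 for OSGIN1. Without the r1 or the r2 Control library SLC7A11 alone was called, OSGIN1 was lost also without r2 TGFBRi (adjusted p = 0.195), and with DESeq2 it was at 0.0826.

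PI3K inhibition raised HMOX1, OSGIN1, GCLM and TXNRD1 and lowered SLC7A11 in drug-susceptible cells, again against the shared Control libraries. HMOX1 was at 55.7 and 62.6 CPM with PI3Ki and 38.8 and 43.1 CPM in Control (log2 0.63, SE 0.065, edgeR adjusted p = 5.23e-07). OSGIN1 was at 18.8 and 17.0 CPM against 12.2 and 12.4 (log2 0.63, SE 0.076, adjusted p = 5.14e-06). SLC7A11 was at 6.85 and 8.13 CPM against 9.43 and 12.2 (log2 -0.43, SE 0.091, adjusted p = 0.00266). The libraries of the 2 groups did not overlap for any of the 3 genes, and the share of all genes without overlap was not counted. Smaller rises were those of GCLM, from 28.4 and 32.4 to 34.6 and 34.3 CPM (log2 0.28, adjusted p = 0.00593), and TXNRD1, from 132 and 147 to 152 and 149 CPM (log2 0.21, adjusted p = 0.0373). Thus 4 members rose and 1 fell, against 5.89% and 6.22% of 17914 genes, and in all cells the same 5 genes were called, where 5.83% rose and 6.83% fell.

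NQO1 (246 and 251 CPM), GCLC (10.4 and 9.21), SRXN1 (17.2 and 18.6) and NFE2L2 (103 and 106 CPM) did not pass with PI3Ki, with log2 fold changes between -0.09 and 0.10. HMOX1 and OSGIN1 were called in every alternative tried, including the fit without the replicate term (adjusted p = 0.00634 and 0.00235). That fit lost SLC7A11 (0.113), GCLM (0.0719) and TXNRD1 (0.137). TXNRD1 was also lost without any 1 of the 4 libraries of the comparison (log2 0.17 to 0.25), GCLM without r1 Control, r1 PI3Ki or r2 PI3Ki (0.23, 0.23 and 0.32), and SLC7A11 without r2 Control or r1 PI3Ki (-0.33 and -0.39). The PI3Ki libraries had 43.6% and 44.1% of cells in G1, against 34.0% and 32.7% in Control, and HMOX1 was lowest in that phase. With PI3Ki HMOX1 was at 40.2 against 29.7 CPM in cluster 0, 102 against 58.2 in cluster 1 and 87.0 against 56.7 in cluster 7. Values of the other clusters are not reported here. Cluster 6, at 35.5 CPM of HMOX1, held 2239 PI3Ki cells and 168 Control cells. The part of phase and of the cluster mix in the HMOX1 value was not tested.

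Set in order over the 4 treatments in drug-susceptible cells, SLC7A11 ran from TGFBRi (16.3 and 16.6 CPM) over Control and PI3Ki to TGFB1, and no neighbours in that order overlapped. GCLM ran from TGFB1 (42.4 and 45.9 CPM) over PI3Ki (34.3 and 34.6) and Control to TGFBRi (24.9 and 27.3), again with no overlap. OSGIN1 ran from PI3Ki (17.0 and 18.8 CPM) over TGFBRi (14.5 and 15.8) and Control to TGFB1 (8.14 and 9.40), with no overlap. For NQO1, TGFBRi was above and TGFB1 below, and Control and PI3Ki overlapped. For HMOX1, PI3Ki stood above the 3 others, which overlapped. For TXNRD1, PI3Ki (149 and 152 CPM) stood above the 3 others, of which Control (132 and 147) overlapped with TGFBRi (143 and 144) and with TGFB1 (121 and 136), while TGFBRi and TGFB1 did not overlap. For GCLC, SRXN1 and NFE2L2 neighbours in the order overlapped. These orders are a description, since the share of all genes with such gaps was not counted.

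**Figure D4:**
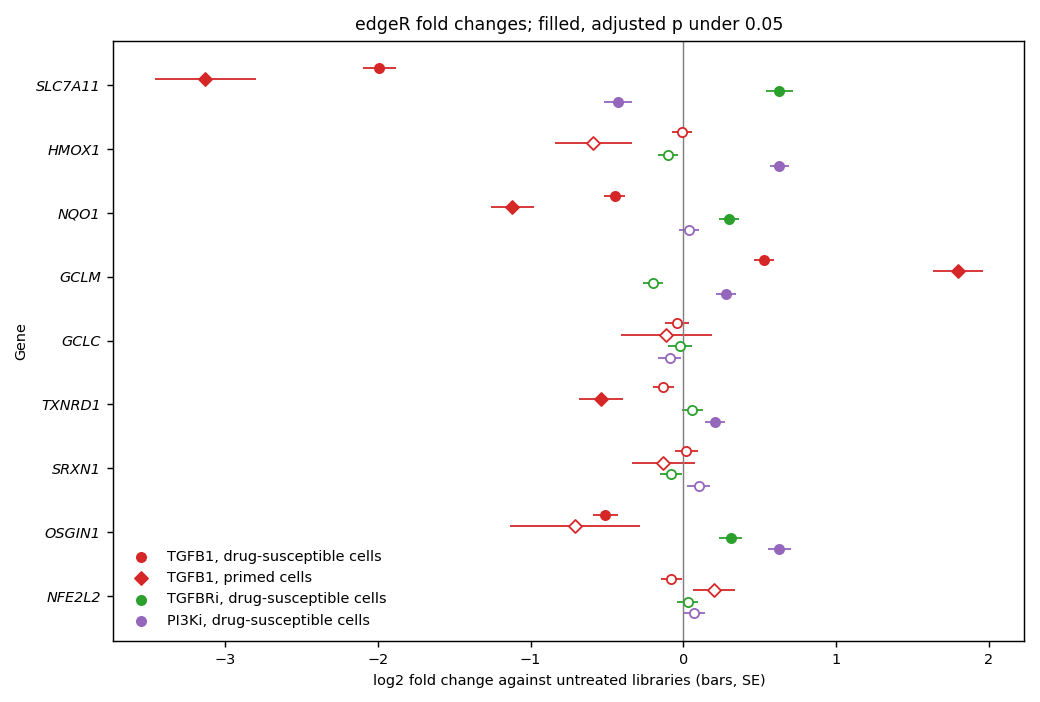
Log2 fold change against Control of each member by edgeR, with 1 standard error on either side, in drug-susceptible cells for TGFB1, TGFBRi and PI3Ki and in primed cells for TGFB1, with circles for drug-susceptible and diamonds for primed cells, filled where the adjusted p was under 0.05. SLC7A11 lies at -1.99 with TGFB1, -0.43 with PI3Ki and 0.63 with TGFBRi, GCLM at 0.53 and 1.80 with TGFB1 in drug-susceptible and primed cells, and NFE2L2 is close to 0 throughout.

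The other pathway genes in drug-susceptible cells did not move in 1 direction with TGFB1, where 8.56% of 17914 genes rose and 6.32% fell. Of 11 ATF4 targets tested 1 rose and 7 fell, with a median of -0.29 beside 0.001 over all genes: SLC7A5, a carrier of large neutral amino acids, rose (log2 1.1), and ATF3 (-0.71), ASNS (-0.70) and DDIT4 (-0.51) were the largest falls. SLC3A2, the chain that SLC7A11 and SLC7A5 share, rose from 137 and 132 CPM to 198 and 186 CPM (0.49), and GSR, glutathione reductase, fell (-0.35), among 7 cystine and glutathione genes. Of 6 NADPH-supplying genes 0 rose, and IDH1 (-0.29), TKT (-0.27) and ME1 (-0.23) fell. Of 6 thioredoxin genes TXNIP, an inhibitor of thioredoxin, rose (1.33) and TXN fell (-0.46). EPHX1 was the 1 of 7 quinone genes that rose (0.29, 0 fell), PIR the 1 of 10 genes of the regulator list that fell (-0.33, 0 rose) and BLVRA the 1 of 6 heme and iron genes that fell (-0.20, 0 rose). In the fit without the replicate term no quinone, regulator or heme and iron gene was called. There 2 of 6 NADPH-supplying genes fell, and of 11 ATF4 targets 1 rose and 5 fell. The counts of cystine and glutathione and of thioredoxin genes were the same. Without cluster 3, where 7.74% of 17847 genes rose and 5.5% fell, 2 of 11 ATF4 targets rose and 5 fell (median -0.17). IDH1 (-0.17) and BLVRA (-0.10) were then not called, and PRDX1 (0.39) and UGDH (0.30) were called higher. In primed cells, where 6.21% of 10930 genes rose and 7.09% fell, MAFF (-1.27) and PIR (-0.71) fell among 10 regulators, ME1 (-0.87) among 6 NADPH-supplying genes, FTL (-0.74) and BLVRB (-0.43) among 6 heme and iron genes and 5 of 10 ATF4 targets, led by DDIT3 (-2.36), TRIB3 (-1.88), SESN2 (-1.45) and ATF3 (-1.28), while TXNIP rose (0.77). These primed calls set mainly cluster 4 cells with TGFB1 against cluster 10 cells of Control. Within cluster 10 1.04% of 9481 genes rose and 1.67% fell. There TXNIP (1.23) and ME1 (-1.10) kept their direction and call, and PIR was called higher (1.27). MAFF (-0.05), FTL (0.13), BLVRB (0.18), DDIT3 (0.09), TRIB3 (-0.09), SESN2 (-0.34) and ATF3 (-2.31) were not called in these cluster 10 cells. Of 10 ATF4 targets there 1 rose and 0 fell.

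With TGFBRi 6 of 11 ATF4 targets rose and 1 fell, with a median of 0.30 beside 0.004 over all genes, led by ATF3 (0.70), TRIB3 (0.49) and SESN2 (0.45), with SLC7A5 falling (-0.71), against 1.22% and 1.59% of 17914 genes. Without the replicate term this comparison had 47 calls in place of 503, and 1 of the 11 targets rose and 1 fell. GSTM3 rose (0.56), TXNIP rose (0.33), PRDX1 (-0.66), ME1 (-0.39) and UGDH (-0.23) fell, and no regulator, heme or iron gene passed. In the fit without the replicate term no cystine and glutathione, NADPH-supplying or quinone gene was called. Of 6 thioredoxin genes 0 rose and 1 fell in that fit. With PI3Ki, where 5.89% of 17914 genes rose and 6.22% fell, 0 of 11 ATF4 targets rose and 8 fell, with a median of -0.29 beside 0.005, led by DDIT4 (-1.41), ATF3 (-0.97), PSAT1 (-0.45) and PHGDH (-0.33). Without the replicate term 0 of them rose and 3 fell. Both ferritin chains rose among 6 heme and iron genes, FTH1 by 0.50 and FTL by 0.32, and SQSTM1, an autophagy receptor that can sequester KEAP1, rose by 0.49 as the 1 of 10 regulators. UGDH (0.45) and EPHX1 (0.25) rose among 7 quinone genes, TXNIP (0.92) and PRDX1 (0.39) among 6 thioredoxin genes and TALDO1 (0.21) among 6 NADPH-supplying genes, of which ME1 fell (-1.22). Of 7 cystine and glutathione genes GSTP1 rose (0.25) and MGST1 (-0.52), GSTM3 (-0.38) and GSR (-0.30) fell. In the PI3Ki fit without the replicate term the regulator and thioredoxin counts were the same. There 1 of 6 heme and iron genes and 1 of 7 quinone genes rose. Of 6 NADPH-supplying genes 0 rose and 1 fell in that fit, and of 7 cystine and glutathione genes 0 rose and 1 fell.

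The ATAC comparison asked whether the promoters of the members were more or less open in cells sorted for primed markers. Each value is the MACS2 fold enrichment of the highest peak within 500 bases of an annotated start of the gene, from peaks the authors called per library on hg38. All 9 members had such a peak in all 12 libraries, as did 13400 of the 14946 genes with a peak in any library. The highest NQO1 peak was chr16:69725725-69728253, with its summit 11 bases upstream of the nearest annotated start, and the highest SLC7A11 peak chr4:138241388-138242753. The GCLM motif, the last TXNRD1 motif printed above and the OSGIN1 motif lie within the highest peak of their gene. In 300 bases on the peak summits the first motif was found for GCLC, TXNRD1 and NFE2L2. The second was found for GCLC, SRXN1 and OSGIN1. Of all 14946 such windows 14.7% held the first and 7.27% the second. For SLC7A11 and HMOX1, which have no RefSeq window, no motif result on the summit is given.

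NQO1 had a fold enrichment of 95.4, 84.8 and 106 in the marker-negative libraries, 79.0, 86.0 and 94.0 in EGFR-high, 93.0, 97.1 and 101 in NGFR-high and 119, 93.6 and 105 in EGFR/NGFR-high. The sorts overlapped, and the log2 differences from marker-negative cells were -0.06 (SE 0.10), -0.11 (0.10) and 0.09 (0.10). These and the differences that follow are on values centred on the median promoter of each library, and without centring the NGFR-high difference was 0.03. SLC7A11 was at 43.0, 47.1 and 45.0 in marker-negative, 38.0, 41.6 and 33.8 in EGFR-high, 40.2, 46.4 and 41.8 in NGFR-high and 49.4, 46.8 and 39.2 in EGFR/NGFR-high libraries. On these uncentred values its 3 EGFR-high libraries lay below the 3 marker-negative ones. On centred values its NGFR-high libraries (0.935, 1.07 and 1.03) also lay below marker-negative ones (1.13, 1.28 and 1.13). These gaps are a description, since the share of all promoters with such gaps was not counted. The EGFR-high difference of -0.18 (SE 0.11) did not pass limma's test (adjusted p = 0.527). GCLM was at 47.5, 46.7 and 43.6 in marker-negative and 50.4, 51.1 and 47.5 in EGFR-high libraries (0.19, SE 0.10, adjusted p = 0.447). OSGIN1, the member with the largest loss in primed WM989 cells, was at 41.2, 42.9 and 45.0 in marker-negative libraries and at 36.7 to 53.8 in the 9 others.

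In all 3 sorts 0 of 9 members were called by limma, and 0 had an unadjusted p under 0.05, against 13.1%, 13.0% and 12.5% of the 13400 promoters in EGFR-high, NGFR-high and EGFR/NGFR-high cells. Over all promoters 0.41% were higher and 0.291% lower in EGFR-high cells, 0.619% and 0.657% in NGFR-high cells and 1.04% and 0.448% in EGFR/NGFR-high cells. The lowest adjusted p of a member was 0.447, 0.413 and 0.789 in that order, and the median member differed by 0.01, -0.02 and 0.04 on the log2 scale. The call counts of the whole table moved with single libraries, and the members' standard errors were 0.10 to 0.15, so that SLC7A11 in NGFR-high cells, at -0.22 (SE 0.11), did not pass (limma adjusted p = 0.413).

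**Figure D5:**
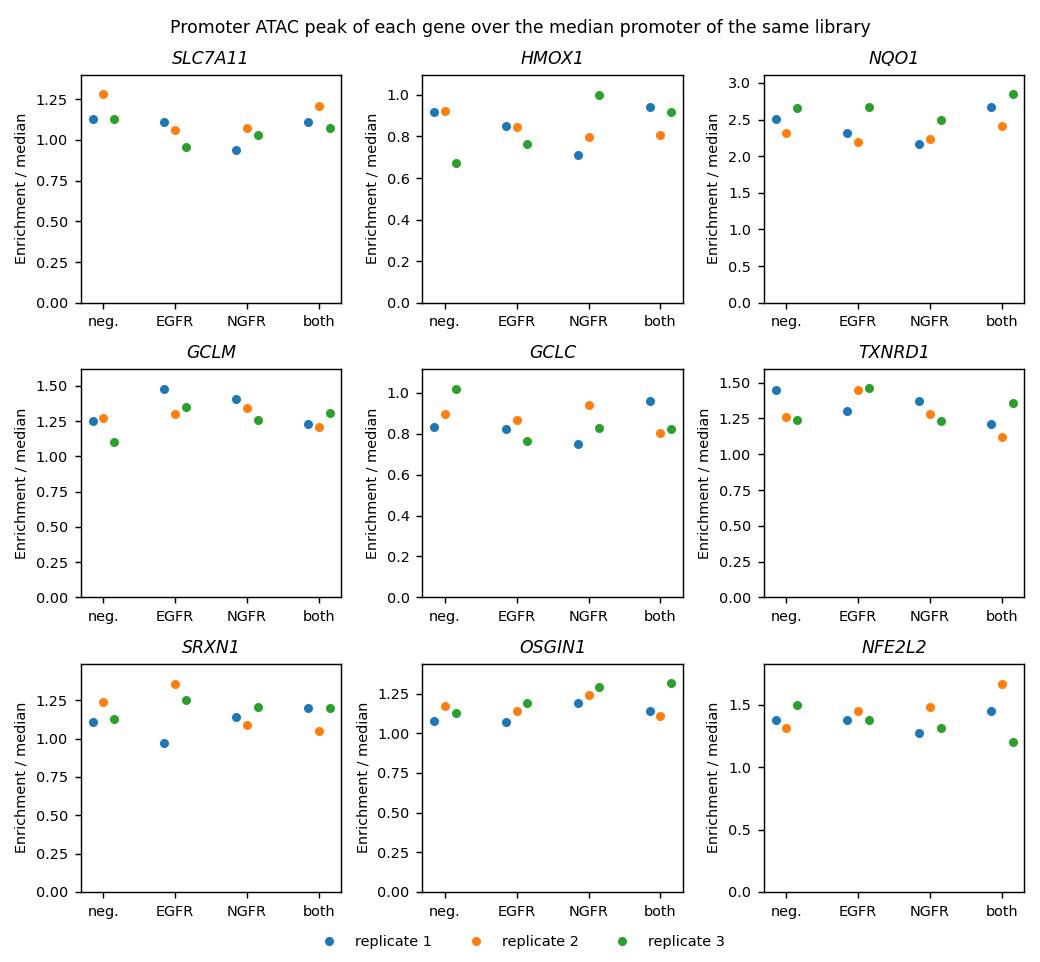
Fold enrichment of the highest promoter peak of each member divided by the median promoter of the same library, on linear axes that start at 0, in the 12 ATAC libraries by sort (marker-negative, EGFR-high, NGFR-high and EGFR/NGFR-high), 1 point for each library coloured by replicate number. The sorts overlap or lie close for each member, with NQO1 between 2.17 and 2.85 times the median promoter and SLC7A11 between 0.935 and 1.28 times.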

How the data were processed

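The deposited single-cell tables hold UMI counts, which the authors obtained with Cell Ranger on hg38 (version and annotation not given in the sources used here) and did not normalize for depth. The authors had filtered cells on the number of genes detected, low or high enough for a doublet, and on the percent of mitochondrial UMIs. The deposited ATAC peak lists give the fold enrichment, a ratio over local background, and the −log10 q-value of MACS2 2.1.1.20160309 per library, after Bowtie2 2.3.4.1 and SAMtools 1.1. States, clusters and phases are the authors' labels, and no doublet caller was run.

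Counts were summed per state, cluster, well or library. CPM of sums have exact Poisson intervals at 95% that cover counting error only, and floors at 3 counts. Cells were thinned to 10000 UMIs in WM989, and shares were computed with and without thinning. In the treatment experiment edgeR 4.0.16 (R 4.3.3) was run on the sums (filterByExpr, TMM with factors of 0.941 to 1.05 for all cells, two-sided quasi-likelihood test, Benjamini-Hochberg, threshold 0.05, all 8 libraries, terms for treatment and replicate, 3 residual degrees of freedom). The standard error is the log2 fold change divided by the square root of F. Primed cells were tested in libraries with at least 20. Wells were split over plates, and r2 minus r1 correlated between treatments (Pearson's r 0.256 to 0.365 over 6 pairs), so replicate pairs the libraries. The labels call these replicates Mix and Primed, the cell table calls them r1 and r2, and they could not be matched, so the fits use r1 and r2 and p-values measure the spread between these libraries. Promoter peaks were tested with limma 3.58.1 on log2 values centred on each library's median gene, with 8 residual degrees of freedom. On simulated data for the NGFR-high comparison with 200 of 13400 genes changed by 1 on the log2 scale, 87.5% were recovered, with 12 false calls. Recovery of changes as small as those of the members was not simulated. DESeq2 1.42.0 was an alternative. Promoter sequences are from RefSeq, and annotated starts from GENCODE on hg38.

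Named genes are the 9 members, up to 4 genes past the threshold or the fold per pathway list, and the 3 genes most like each member with a 2-fold range over clusters. GPX1 was not analysed here, and some genes that this rule names are not reported here. The members, lists and tests were chosen with earlier results of these data known.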

Additional observations from a re-analysis of the deposited data

Results flagged for a closer look

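NQO1 differed in direction between the cell lines in sums over each state. The primed WM983B clusters 0 and 2 were at 219 and 272 CPM, on either side of clusters 1 and 3 at 247 and 232 CPM. The NQO1 log2 ratio of primed to drug-susceptible cells was -0.12 in the single WM983B library and 0.48 to 1.52 in the 8 wells of WM989, and this difference between lines was not tested. NFE2L2 had a log2 fold change with TGFB1 of 0.20 in primed cells and -0.08 in drug-susceptible cells, with both replicates above Control in the first and below it in the second, neither past the threshold by edgeR, and the difference was not tested.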

How the results depend on the processing

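Over the members' own values 819 alternatives were computed, of which 699 were labelled the same, 51 lost a call, 2 gained one, 59 changed sign and 8 moved by more than the spread. For the ratios of primed to drug-susceptible cells the label did not use sign. The 699 therefore include changes of sign, as of SLC7A11 and SRXN1 when 1 WM989 well was left out. The cause of these changes was not tested. The depth and the 2 libraries per group limit small changes, and nearly all changes of sign were of members with no call.

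Without the replicate block, genes called in drug-susceptible cells went from 2665 to 1189 for TGFB1, from 503 to 47 for TGFBRi (members from 3 to 0) and from 2170 to 570 for PI3Ki (members from 5 to 2). In all cells they went from 466 to 40 for TGFBRi (members to 0) and from 2328 to 649 for PI3Ki (members to 2). Deviations of ATAC libraries with the same replicate number correlated weakly (-0.0636 to 0.139). Even so, 4, 3 and 4 of 4 libraries of numbers 1, 2 and 3 were closest to another sort's library of their number. The main fit had no block for these numbers. With such a block 112, 219 and 239 promoters were called in place of 94, 171 and 200, with 0 members in either fit.

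With no filter on low counts 748 genes were called for TGFBRi in all cells, and SRXN1 with TGFB1 in drug-susceptible cells was at 0.0. DESeq2 called 329 genes for TGFBRi in drug-susceptible cells, and 693 genes with 2 members for TGFB1 in primed cells, where edgeR called 1454 and 4. With only cluster 10, chosen after seeing the data, primed cells gave 257 genes and 1 member, with SLC7A11 at 0.03, GCLM at -0.17, GCLC at 0.30, TXNRD1 at 0.01, SRXN1 at 0.83 and OSGIN1 at 2.03. Without cluster 3, also chosen after seeing the data, HMOX1 with TGFB1 was at 0.40. A minimum of 1 CPM put 1522 WM983B genes past the fold in place of 828.

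With peaks at the gene's 5′ end only, 42, 57 and 73 promoters were called in EGFR-high, NGFR-high and EGFR/NGFR-high cells, with TXNRD1 at -0.47 in the first and 0.02 in the last and NFE2L2 at 0.12 in the second. Without centring, EGFR-high cells had SRXN1 at -0.05 and OSGIN1 and NFE2L2 at -0.07, NGFR-high cells NQO1 at 0.03, GCLC at 0.01, TXNRD1 at 0.12, SRXN1 at 0.13 and NFE2L2 at 0.10, and EGFR/NGFR-high cells SRXN1 at 0.05.

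Leaving out 1 library at a time, TGFB1 called 3164 to 4161 genes in all cells (SRXN1 -0.09 to 0.12, NFE2L2 -0.14 to 0.01), 988 to 2098 in drug-susceptible cells (HMOX1 -0.05 to 0.04, GCLC -0.09 to 0.02, SRXN1 -0.08 to 0.12) and 584 to 763 in primed cells (HMOX1 -1.62 to 0.92, GCLC -0.29 to 0.04, SRXN1 -0.26 to 0.06). TGFBRi called 168 to 1146 genes and 1 to 3 members in all cells (GCLC -0.06 to 0.04, SRXN1 -0.19 to 0.02, NFE2L2 -0.03 to 0.07) and 206 to 1247 genes and 1 to 3 members in drug-susceptible cells (GCLC -0.07 to 0.03, SRXN1 -0.18 to 0.02, NFE2L2 -0.03 to 0.08). PI3Ki called 719 to 1302 genes and 2 to 3 members in all cells (NFE2L2 -0.03 to 0.16) and 632 to 1237 genes and 2 to 3 members in drug-susceptible cells (NFE2L2 -0.02 to 0.15). Leaving out 1 ATAC replicate gave 16 to 61 promoters in EGFR-high cells (HMOX1 -0.12 to 0.04, SRXN1 -0.03 to 0.14, OSGIN1 -0.02 to 0.03, NFE2L2 -0.06 to 0.07), 23 to 216 in NGFR-high cells (HMOX1 -0.29 to 0.18, TXNRD1 -0.05 to 0.01, SRXN1 -0.07 to 0.07, NFE2L2 -0.15 to 0.03) and 43 to 142 in EGFR/NGFR-high cells (HMOX1 -0.08 to 0.24, GCLM -0.04 to 0.12, GCLC -0.24 to 0.02, SRXN1 -0.08 to 0.10, NFE2L2 -0.12 to 0.22). With each WM989 well weighted equally NQO1 was at 1.04, GCLM at 0.48, GCLC at -0.78, TXNRD1 at 0.64, SRXN1 at -0.27 and NFE2L2 at -0.09, in place of 1.47, 0.92, -0.55, 0.98, 0.43 and 0.07. Leaving out 1 WM989 well, NFE2L2 ran from -0.01 to 0.17, SLC7A11 from -0.19 to 0.34 and SRXN1 from -0.14 to 0.89.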
